A study of Saccharomyces cerevisiae with 4 samples.

Results

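YGP1 (YNL160W) and SPS100 (YHR139C) are a duplicate gene pair of Saccharomyces cerevisiae, and their transcripts were followed in cells that lack the deacetylase genes SIR2 and HST1. They are 2 of the 6690 gene names listed for each library, and both were found by systematic name. YGP1 was chosen by its measured fall, the largest among annotated genes called lower that had not been deleted, and SPS100 was added as its paralog. The difference of either gene between the strains is therefore given as a description, with no test.

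RNA came from cultures grown exponentially in YPD at 30 °C to an OD of 1. The deletion strain (sir2D::TRP1 hst1D::KanMX, with hmrD::ura3) gave 2 libraries, and the wild-type strain (hmr::ura3) gave 2 libraries. Both strains are of the alpha mating type and also carry trp1-1, ura3-1, lys2D, can1-100, leu2-3,112 and his3-11, and the label of the wild type adds GAL. The series calls the libraries technical replicates of 1 strain per genotype, so p-values here measure the spread between libraries and not between cultures, and the effect of the TRP1 and KanMX markers cannot be told apart from that of the lost genes. SIR2 was listed at 0 FPKM in both deletion libraries, against 24.3 and 23.8 FPKM in wild type, and HST1 at 0 in both deletion libraries, against 58.2 and 57.8 FPKM in wild type. FPKM scales reads by gene length and library size, so levels of different genes can be compared. The FPKM sums were 3586265 and 3662426 in the deletion libraries and 3468679 and 3419038 in wild type. Read totals were not used here, and relative depth could only be estimated roughly from whole-read steps in the lowest values. With wild-type replicate 1 set to 100%, the estimates were 83.2% for deletion replicate 1, 76.6% for deletion replicate 2 and 89.2% for wild-type replicate 2. Only a minority of low genes lay on such steps, so these depths are uncertain. The 4 alpha-specific genes summed to between 4840 and 5508 FPKM in the deletion libraries and between 5518 and 5766 FPKM in wild type, while the 7 a-specific genes summed to between 111 and 116 FPKM in the deletion libraries and between 48.9 and 105 FPKM in wild type. Of these 11 markers SAG1 alone passed the limma test described further on, as lower, against 2.79% of all genes called lower and 6.75% higher. By unadjusted p of that test 3 alpha-specific genes were lower and 0 higher, and 2 a-specific genes were higher and 0 lower. Of all 6370 genes tested, 900 were lower and 1025 higher at that level. MFA1 was listed at 0 in wild-type replicate 2.

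Ygp1 is a heavily glycosylated protein that yeast secretes to the cell wall, and its gene is known for strong induction when nutrients run short and cells approach stationary phase. Sps100 is a related protein that is made late in sporulation and is needed for maturation of the spore wall. According to the annotation of the R64 reference genome the pair arose in the whole-genome duplication. Sir2 silences chromatin at telomeres, in ribosomal DNA and at the silent mating-type cassettes, whereas Hst1 works with the DNA-binding protein Sum1 to keep genes of middle sporulation off in growing cells. Msn2 and Msn4 activate general stress genes through the stress response element (STRE), Gis1 acts through the post-diauxic shift element (PDS), and Haa1 activates a weak acid response for which both YGP1 and SPS100 are reported targets. Ndt80 switches on middle sporulation genes through the middle sporulation element (MSE), which Sum1 also binds at many of them.

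In R64 the single coding exon of YGP1 covers chrXIV:336545-337609 on the plus strand, and that of SPS100 covers chrVIII:378219-379199 on the minus strand. The deposited files give no coordinates and their build is not given in the sources used here, so genes were matched to R64 by systematic name. The coding sequences are 1065 and 981 bases long, and 54.6% of bases were identical over 305 aligned codons. Their longest identical run was 17 bases, shorter than a usual sequencing read. The most alike ungapped stretch of 90 bases shows how far the duplicates have diverged, with identical bases in capitals (63 of 90). It spans coding bases 760 to 849 of YGP1 (chrXIV:337304-337393, plus strand) and 643 to 732 of SPS100 (chrVIII:378468-378557, minus strand).
YGP1: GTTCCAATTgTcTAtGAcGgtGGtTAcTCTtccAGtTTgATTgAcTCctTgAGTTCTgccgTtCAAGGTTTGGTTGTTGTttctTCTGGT
SPS100: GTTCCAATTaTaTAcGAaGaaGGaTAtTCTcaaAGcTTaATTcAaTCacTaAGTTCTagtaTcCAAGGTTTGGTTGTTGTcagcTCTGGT

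The 300 bases before each start codon are shown because motifs in them are set beside those of the gene groups described further on. Capitals mark matches on either strand to the MSE cores CACAAA and CGCAAA, the STRE core AGGGG and the PDS core AGGGAT. The MSE cores differ from each other in 1 letter, and the STRE and PDS cores share their first letters, so no stretch can match both of a pair from the same base. The promoter of LDS1, the spore wall gene with the largest rise in log2(FPKM + 1), though not with a pseudocount of 0.1, and that of CTT1, the gene with the profile nearest to YGP1, are given for comparison. In R64 the windows are chrXIV:336245-336544 (plus) for YGP1, chrVIII:379200-379499 (minus) for SPS100, chrI:119542-119841 (minus) for LDS1 and chrVII:654334-654633 (plus) for CTT1.
YGP1: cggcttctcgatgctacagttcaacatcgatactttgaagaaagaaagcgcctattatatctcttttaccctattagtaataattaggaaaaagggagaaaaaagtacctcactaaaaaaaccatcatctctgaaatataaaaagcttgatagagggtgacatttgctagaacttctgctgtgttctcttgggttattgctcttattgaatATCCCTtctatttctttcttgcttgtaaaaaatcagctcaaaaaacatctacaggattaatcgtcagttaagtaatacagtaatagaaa
SPS100: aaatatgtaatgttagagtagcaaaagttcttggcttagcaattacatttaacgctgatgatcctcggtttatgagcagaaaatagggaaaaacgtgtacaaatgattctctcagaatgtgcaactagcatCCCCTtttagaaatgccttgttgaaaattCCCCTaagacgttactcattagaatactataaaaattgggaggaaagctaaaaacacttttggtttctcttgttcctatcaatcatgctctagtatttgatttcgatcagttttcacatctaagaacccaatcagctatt
LDS1: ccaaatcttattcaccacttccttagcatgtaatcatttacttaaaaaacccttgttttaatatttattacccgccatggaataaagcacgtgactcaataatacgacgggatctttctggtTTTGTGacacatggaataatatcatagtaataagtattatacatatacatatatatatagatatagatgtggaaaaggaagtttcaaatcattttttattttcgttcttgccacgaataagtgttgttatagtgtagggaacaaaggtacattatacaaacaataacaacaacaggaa
CTT1: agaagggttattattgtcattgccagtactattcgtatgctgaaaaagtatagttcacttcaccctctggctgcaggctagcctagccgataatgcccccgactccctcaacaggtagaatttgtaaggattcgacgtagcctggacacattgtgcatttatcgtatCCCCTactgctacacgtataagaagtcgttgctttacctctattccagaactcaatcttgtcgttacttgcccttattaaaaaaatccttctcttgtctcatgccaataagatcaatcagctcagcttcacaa

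In these windows YGP1 held 1 PDS core, bases 89 to 84 before the start codon on the other strand, and no match to the other 3 motifs. SPS100 held 2 STRE cores on the other strand, starting 169 and 140 bases before the start codon, and neither MSE core. Over the 300 bases before 5987 annotated genes, CACAAA was present for 19.1%, CGCAAA for 12.9%, AGGGG for 22.2% and AGGGAT for 9.25%. When the window was widened to 800 bases YGP1 held 2 STRE cores, 3 PDS cores and 1 match to each MSE core, while SPS100 held 3 STRE cores and 1 PDS core and still neither MSE core. In windows of that length, CACAAA was present for 43.9%, CGCAAA for 30.1%, AGGGG for 48.3% and AGGGAT for 24.0% of 5983 genes. As many matches as YGP1 or more were found for 16.2% with AGGGG and 0.217% with AGGGAT. No test was made of these shares, which were looked up for 4 motifs. These are matches of letters and do not show that any factor binds there.

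YGP1 was listed at 147 and 156 FPKM in the deletion libraries, against 386 and 388 FPKM in wild type. Both deletion libraries lay far below both wild-type libraries, and replicates differed little within each strain. The means were 152 ± 6.43 FPKM in the deletion strain and 387 ± 1.11 FPKM in wild type (SD, n = 2 each), so the wild-type level was 2.55 times that of the deletion strain. The difference was -1.34 in log2(FPKM + 1), and between -1.39 and -1.30 when any 1 library was left out. Among all listed names YGP1 ranked 1303rd and 1254th by FPKM in the deletion libraries, against 602nd and 597th in wild type, so it stayed well above the median gene (36.9 to 37.3 FPKM) in all 4 libraries. In bulk RNA, fewer cells expressing a gene and less RNA per cell cannot be told apart. Separation of the libraries alone was common, since 31.7% of the 6370 genes tested had both deletion values below both wild-type values.

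SPS100 was listed at 6.05 and 6.89 FPKM in the deletion libraries, against 4.41 and 5.57 FPKM in wild type. All 4 values were low and close together, although the deletion values lay above the wild-type values, as they did for 30.5% of the genes tested. The means were 6.47 ± 0.59 FPKM in the deletion strain and 4.99 ± 0.82 FPKM in wild type (SD, n = 2 each), a ratio of 1.30. The log2(FPKM + 1) difference was 0.32, and it lay between 0.19 and 0.47 when any 1 library was left out. It was -0.01 after quantile normalization, so its direction depends on the scaling. Among the 374 tested genes with a wild-type mean within 1.5 times that of SPS100 the median difference was 0.18, and 36.9% had a larger difference than SPS100. In each library between 10.7% and 12.6% of all names had a lower FPKM than SPS100.

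The antisense transcript SUT169 is annotated on the opposite strand and overlaps 946 of the 981 bases of SPS100. It is not listed by that name in the files, and use of strand in the counting is not given in the sources used here. The SPS100 value may thus hold reads of either strand. No annotated gene of R64 overlaps YGP1.

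**Figure D1:**
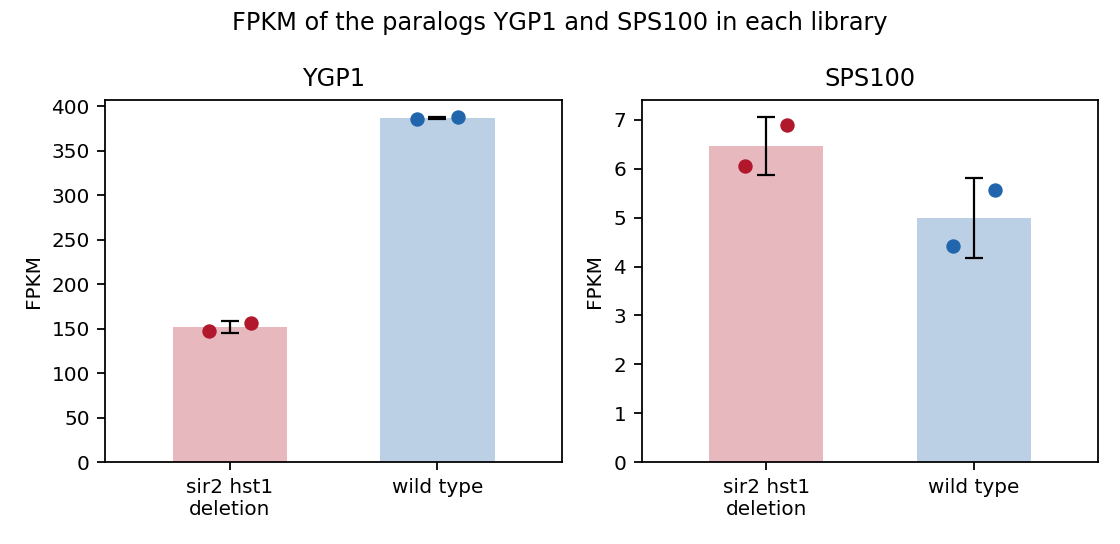
FPKM of YGP1 (left) and SPS100 (right) in the sir2 hst1 deletion and wild-type libraries. Points are libraries, bars are means and error bars are the SD of 2 libraries; YGP1 averages 152 FPKM in the deletion strain and 387 FPKM in wild type, while SPS100 stays between 4.41 and 6.89 FPKM.

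In the deletion strain the gap between the paralogs narrowed but YGP1 remained far the more abundant. YGP1 exceeded SPS100 by 24.3 and 22.7 times in the deletion libraries, against 87.6 and 69.6 times in wild type. The log2 ratio of SPS100 to YGP1, with 1 FPKM added to each, was 1.67 higher in the deletion strain, and 1.36 higher after quantile normalization.

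YGP1 and SPS100 sit in duplicated stretches of chromosomes XIV and VIII that still share other gene pairs. Of those, only RPL42A and RPL42B, IGO1 and IGO2, and NSG2 and NSG1 were looked at, and none passed the test in either copy. Across the genome the test was limma on log2(FPKM + 1) with Benjamini-Hochberg adjustment at 0.05, and it called 6.75% of 6370 genes higher and 2.79% lower in the deletion strain. Higher genes made up 70.7% of these calls, and 54.7% after quantile normalization. The 430 higher and 178 lower genes became 327 and 45 without wild-type replicate 1, 282 and 43 without wild-type replicate 2, 121 and 15 without deletion replicate 1, and 113 and 15 without deletion replicate 2. RPL42A and RPL42B, which encode the same ribosomal protein, had log2 differences of 0.0016 and 0.06, but their coding sequences are 98.1% identical and may share reads. IGO1 and IGO2, which encode inhibitors of the PP2A phosphatase during quiescence, had differences of -0.12 and 0.0003. NSG2 and NSG1, which stabilise the sterol synthesis enzyme Hmg2, had differences of -0.26 and -0.04. Of these 6 genes limma called 0, and 1 was lower at an unadjusted p under 0.05. At that level 1025 of the 6370 genes tested were higher and 900 lower. NSG2 passed when only names in R64 were tested (adjusted p = 0.0402).

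Around YGP1 none of the 3 annotated genes on either side passed limma, with differences between -0.25 and 0.18. If p is left unadjusted, 1 neighbour was higher and 2 lower, against 1025 and 900 of all 6370 genes tested. They include CBK1, a kinase gene of cell separation 1677 bases upstream, with 19.9 and 21.0 FPKM in the deletion libraries and 23.1 and 23.3 FPKM in wild type. ASI2, the gene of an inner nuclear membrane protein 868 bases downstream, had 38.9 and 38.6 FPKM in the deletion libraries and 45.0 and 47.4 FPKM in wild type. Around SPS100, ARO9 and YHR140W rose and the other 4 neighbours did not pass. These are 2 of 6 neighbours, against 6.75% of all genes called higher. By unadjusted limma p 4 of the 6 were higher and 0 lower, and their median log2 difference was 0.39. ARO9, which encodes an aromatic aminotransferase, had 140 and 150 FPKM in the deletion libraries, against 64.1 and 65.3 FPKM in wild type (2.24-fold, limma adjusted p = 0.00102). YHR140W had 20.3 and 17.7 FPKM in the deletion libraries, against 9.80 and 10.4 FPKM in wild type (1.88-fold, adjusted p = 0.0113), and missed the threshold if deletion replicate 1 (0.0763) or 2 (0.0624) was left out. YHR139C-A, the nearest gene upstream of SPS100, had 15.6 and 12.9 FPKM in the deletion libraries and 7.22 and 10.8 FPKM in wild type (adjusted p = 0.128), and passed with the crossed block (0.042). YHR138C on the other side had a difference of 0.15.

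**Figure D2:**
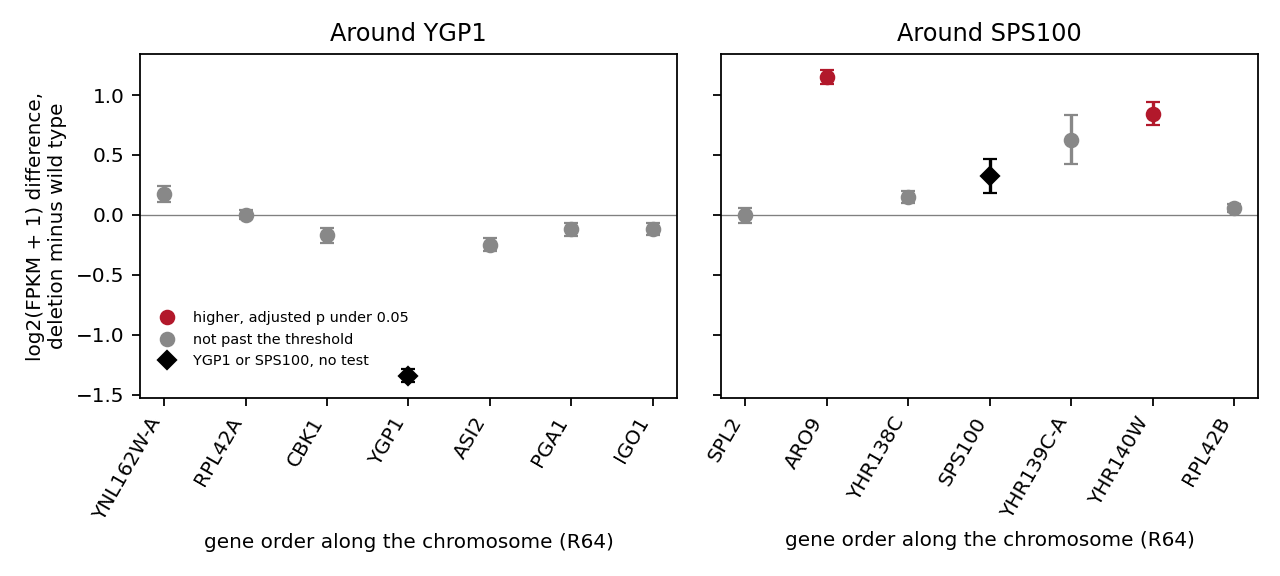
Log2(FPKM + 1) difference, deletion minus wild type, of the 3 annotated genes on each side of YGP1 (left) and SPS100 (right) in R64 order; error bars are the standard error from limma. The neighbours of YGP1 lie between -0.25 and 0.18, and ARO9 (1.15) and YHR140W (0.85) stand above 0 beside SPS100.

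Genes of spore and spore wall formation, named spore wall genes here for short, rose in large numbers while SPS100 itself was 1.30 times its wild-type level. Of 30 such genes listed and tested, 26 rose and 0 fell (limma), against 6.75% of all genes called higher. By unadjusted p, 1025 of all 6370 genes tested were higher and 900 lower, against 28 and 0 of these 30 genes. Their median log2 difference was 2.08, against -0.0054 over all genes tested. The list was drawn up knowing that sporulation genes rise in these data and is no independent evidence of that rise. The difference of SPS100 was above that of 4 of the 30 and below that of the other 26. A wild-type mean no more than 2 times that of SPS100 was found for 23 of the 30, and 21 of these 23 were at least 2-fold higher in the deletion strain. CDA2, OSW1, SMA1 and SPO19 among them met the filter of 1 FPKM in 2 libraries only through the deletion libraries. These counts are therefore a description and not a comparison with SPS100 at matched levels.

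LDS1, whose protein sits on spore lipid droplets and acts in spore wall assembly, had 94.7 and 95.9 FPKM in the deletion libraries, against 1.20 and 1.16 FPKM in wild type (log2 difference 5.46, SE 0.07, limma adjusted p = 9.35e-05). CDA1 and CDA2 encode the chitin deacetylases that make spore wall chitosan. CDA1 had 100.1 and 101 FPKM in the deletion libraries and 1.99 and 2.66 FPKM in wild type. CDA2 had 36.5 and 40.2 FPKM in the deletion libraries and 0.136 and 0.101 FPKM in wild type. OSW1, needed for the outer spore wall, had 27.0 and 28.3 FPKM in the deletion libraries and 0.421 and 0.354 FPKM in wild type. In each of these genes the deletion libraries lay more than 10 times above wild type.

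DIT1 and DIT2, which encode the enzymes of dityrosine synthesis for the outermost spore wall layer and are known, like SPS100, as later sporulation genes, were looked at after their values had been seen. DIT1 rose 2.83-fold, with 23.4 and 23.5 FPKM in the deletion libraries and 8.66 and 7.90 FPKM in wild type (limma adjusted p = 0.00122), but missed the threshold when deletion replicate 1 (0.0506) or 2 (0.0529) was left out. DIT2 had 4.98 and 5.07 FPKM in the deletion libraries, against 3.86 and 3.90 FPKM in wild type, a ratio of 1.30 like that of SPS100, and did not pass (adjusted p = 0.155). It passed with eBayes run without a trend (adjusted p = 0.0499). The other spore wall genes that did not pass were RRT8, SPO73 and OSW7, with differences of 0.32, 0.18 and 0.06.

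The MSE core CACAAA was present in the 300 bases before 24 of the 26 spore wall genes that rose, as in the LDS1 sequence printed above. It was also present before 1 of the 4 that did not pass, and before 19.1% of 5987 annotated genes. It was not found for DIT1 and OSW1, which rose, for DIT2, RRT8 and OSW7, which did not pass, or for SPS100. The other MSE core, CGCAAA, was present in the 300 bases before 6 of the 30 spore wall genes and before 12.9% of the 5987 genes. No test was made of these overlaps.

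General stress genes, the targets of Msn2 and Msn4, fell in larger number than they rose. Of 26 tested 8 fell and 1 rose, against 2.79% of all genes called lower and 6.75% called higher, and their median log2 difference was -0.37. By unadjusted limma p 14 of the 26 were lower and 2 higher, against 900 and 1025 of all 6370 genes tested. After quantile normalization 11 fell, with 294 of all genes called lower, and with only names in R64 12 fell, with 297 of all. This list too was drawn up with the fall of stress genes in these data known. The number that fell was 3 and 5 without wild-type replicate 1 and 2, and 1 and 0 without deletion replicate 1 and 2.

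CTT1, the cytosolic catalase gene, had 11.4 and 10.9 FPKM in the deletion libraries, against 25.8 and 28.0 FPKM in wild type (log2 difference -1.20, SE 0.08, limma adjusted p = 0.00185). MSC1 had 36.6 and 33.7 FPKM in the deletion libraries and 55.7 and 53.1 FPKM in wild type (adjusted p = 0.0107). PGM2, the phosphoglucomutase gene, had 15.1 and 16.5 FPKM in the deletion libraries and 25.8 and 23.5 FPKM in wild type (adjusted p = 0.0197). CTT1, MSC1 and PGM2 missed the threshold without deletion replicate 1 (0.0525, 0.0654 and 0.103) or 2 (0.0542, 0.0749 and 0.0939), and MSC1 and PGM2 also without wild-type replicate 1 (0.0502 and 0.0769). The others that fell were TPS1, TPS2 and TSL1 of trehalose synthesis, the glycogen synthase gene GSY2 and the nicotinamidase gene PNC1, with differences between -0.60 and -0.37. GND2, which encodes a phosphogluconate dehydrogenase, was the 1 that rose, with 16.9 and 18.8 FPKM in the deletion libraries and 6.58 and 6.43 FPKM in wild type (adjusted p = 0.00219). The STRE core AGGGG was present in the 300 bases before 23 of the 26 genes, against 22.2% of 5987 genes. It was there for 7 of the 8 that fell and 15 of the 17 that did not pass. The YGP1 window of 300 bases held none. In 800 bases YGP1 held 2, and all 26 stress genes had the core, against 48.3% of 5983 genes.

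Genes reported as activated by Haa1, the group to which both paralogs belong, mostly missed the threshold. Of 14 other members tested, 1 rose and 1 fell, against 6.75% of all genes called higher and 2.79% called lower, so both counts are near the background. The median log2 difference was 0.03. YRO2, which encodes a membrane protein of the acid response, had 579 and 579 FPKM in the deletion libraries, against 413 and 411 FPKM in wild type (limma adjusted p = 0.00551). YRO2 missed the threshold if wild-type replicate 1 (0.0538) or 2 (0.0632) was left out, and then 0 of the 14 rose. SAP30, a subunit of the Rpd3 histone deacetylase complex, had 60.5 and 55.6 FPKM in the deletion libraries, against 75.3 and 72.9 FPKM in wild type (adjusted p = 0.0459). SAP30 did not pass with the replicate number as a block (0.0603), without the filter (0.06), with eBayes without a trend (0.0622) or without any 1 of the 4 libraries (0.0851 to 0.209). GRE1 had 6.24 and 6.27 FPKM in the deletion libraries and 4.72 and 4.43 FPKM in wild type (adjusted p = 0.094), and passed with eBayes without a trend (0.0385). The polyamine exporter gene TPO2 had 143 and 170 FPKM in the deletion libraries and 128 and 128 FPKM in wild type (adjusted p = 0.129), but it is close to TPO3 in sequence (97.2% identity) and may share reads.

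Genes that rise after glucose is used up, another setting in which YGP1 is known to be induced, had 5 members that rose among 21 tested. The 1 that fell is near the background, with 6.75% of all genes called higher and 2.79% called lower, and the list had a median log2 difference of 0.14. SNZ1, of vitamin B6 synthesis, had 112 and 115 FPKM in the deletion libraries, against 21.7 and 21.4 FPKM in wild type (5.27-fold, limma adjusted p = 9.87e-05). CIT2, the peroxisomal citrate synthase gene, had 275 and 307 FPKM in the deletion libraries and 135 and 153 FPKM in wild type (adjusted p = 0.00544). SPG4 had 14.7 and 14.3 FPKM in the deletion libraries and 4.60 and 2.58 FPKM in wild type (adjusted p = 0.0161). The carnitine acetyltransferase gene YAT1 had 4.41 and 6.20 FPKM in the deletion libraries and 1.48 and 1.48 FPKM in wild type (adjusted p = 0.0227). CIT2, SPG4 and YAT1 missed the threshold without deletion replicate 1 (0.0662, 0.121 and 0.0572) or 2 (0.0735, 0.12 and 0.0742). YAT1 missed it also without wild-type replicate 1 (0.0505) or 2 (0.0539) and after quantile normalization (0.0727). The lactate transporter gene JEN1 also rose and the malate dehydrogenase gene MDH2 fell. SPG1, named after its values were seen, had the lowest log2 difference of the list (-1.06), with 3.605 and 6.29 FPKM in the deletion libraries and 10.4 and 11.7 FPKM in wild type, but did not pass (adjusted p = 0.067). The number that rose was 3 and 3 without wild-type replicate 1 and 2, and 1 and 1 without deletion replicate 1 and 2.

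Other secreted and cell wall proteins of growing cells form the group to which Ygp1 belongs by location. Of 40 tested 2 rose, 5 fell and 33 did not pass, against 6.75% of all genes called higher and 2.79% called lower. The median log2 difference was 0.02. PHO5, the secreted acid phosphatase gene, had 451 and 488 FPKM in the deletion libraries, against 778 and 909.8 FPKM in wild type (log2 difference -0.84, limma adjusted p = 0.0105). PST1, a cell wall mannoprotein gene, had 294 and 281 FPKM in the deletion libraries and 483 and 459.7 FPKM in wild type (log2 difference -0.71, adjusted p = 0.00347). ZPS1, a gene induced by low zinc, had 67.3 and 67.9 FPKM in the deletion libraries and 39.4 and 38.0 FPKM in wild type (adjusted p = 0.00244). FIT1, a mannoprotein gene of siderophore iron uptake, had 6.04 and 7.83 FPKM in the deletion libraries and 1.64 and 1.24 FPKM in wild type (adjusted p = 0.00954). The other 3 that fell were EGT2, NCA3 and SCW11, with differences between -0.47 and -0.34. PHO5, ZPS1 and FIT1 missed the threshold without deletion replicate 1 (0.1, 0.0525 and 0.0651) or 2 (0.0939, 0.0542 and 0.076), and PST1 without deletion replicate 2 (0.0542). The number that fell was 2 without either wild-type library and 1 without either deletion library, and the number that rose was 1 without deletion replicate 1 and 0 without deletion replicate 2.

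**Figure D3:**
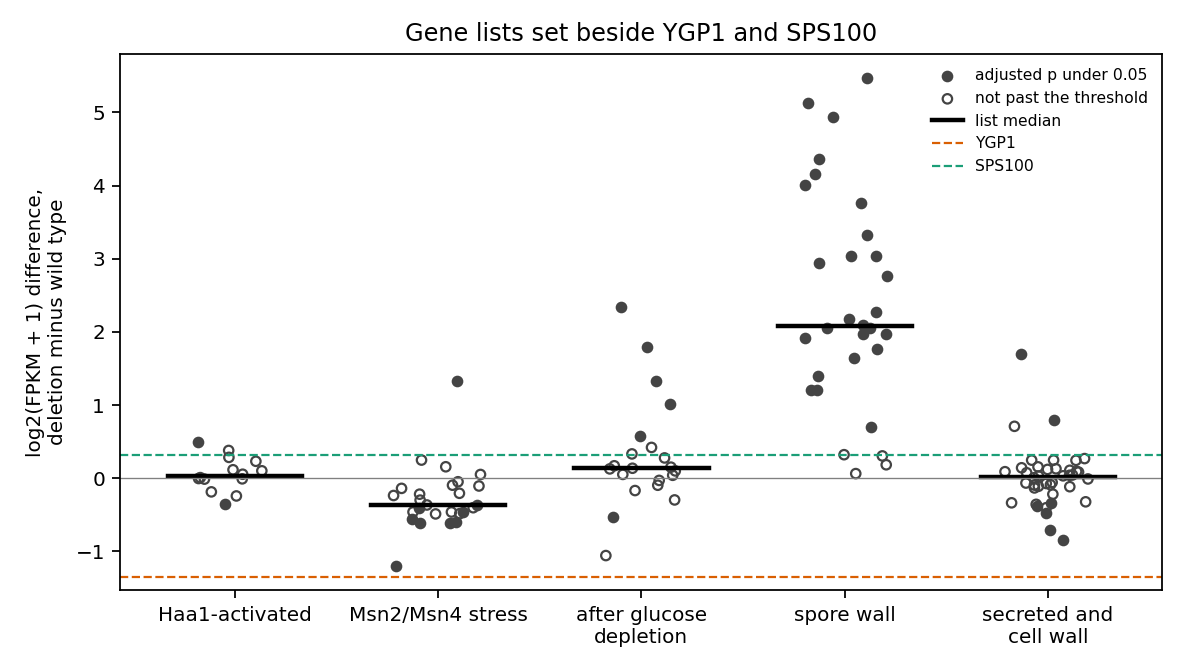
Log2(FPKM + 1) difference, deletion minus wild type, of the genes of 5 lists; filled points passed an adjusted p under 0.05, open points did not, and thick bars are list medians. The dashed lines mark YGP1 at -1.34, which was chosen for its fall, and SPS100 at 0.32, below all but 4 of the 30 spore wall genes.

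Of 10 genes that encode regulators of these groups, limma called 0. By unadjusted p 2 were higher and 2 lower, against 1025 and 900 of all 6370 genes tested. HAA1 had 49.5 and 45.4 FPKM in the deletion libraries and 47.2 and 47.3 FPKM in wild type. MSN2 had 40.1 and 41.8 FPKM in the deletion libraries and 41.2 and 42.0 FPKM in wild type, and MSN4 had 55.7 and 57.4 FPKM in the deletion libraries and 59.5 and 57.5 FPKM in wild type. NDT80 had 27.1 and 29.6 FPKM in the deletion libraries and 23.2 and 26.0 FPKM in wild type. Adjusted p-values of HAA1, MSN2, MSN4 and NDT80 lay between 0.201 and 0.965. SUM1 had 29.5 and 30.5 FPKM in the deletion libraries and 22.5 and 24.3 FPKM in wild type, with an adjusted p of 0.0501. SUM1 passed with a pseudocount of 5 (0.0494), with trimmed-mean scaling (0.0478), with a minimum of 5 FPKM (0.0474) and with only names in R64 (0.0314). GIS1 had 19.7 and 20.8 FPKM in the deletion libraries and 25.5 and 24.4 FPKM in wild type (adjusted p = 0.0693). IME1, the inducer of meiosis, had 14.5 and 17.3 FPKM in the deletion libraries and 11.4 and 11.1 FPKM in wild type (adjusted p = 0.0669). GIS1 and IME1 passed with only names in R64 (0.0465 and 0.0395). RIM15, RFM1 and IME2 had differences of 0.21, -0.18 and -0.14.

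The genes with the profile nearest to that of YGP1 over the 4 libraries were CTT1, ADE17, SAG1, GTT1, AGA1 and HMX1. The measure was the Euclidean distance between profiles of log2(FPKM + 1) centred on the mean of each gene, over 5579 annotated candidates with at least 5 FPKM in the higher genotype. The distances were 0.196 for CTT1 and between 0.362 and 0.491 for the other 5. Since YGP1 was chosen for its fall, a short distance to it mostly reflects a fall of like size. CTT1, ADE17, SAG1, GTT1 and HMX1 had the next 5 falls among annotated genes called lower with at least 5 FPKM in wild type. Their log2 differences lay between -1.20 and -0.95. SPG1, at -1.06, was not called and so was not ranked with them. YDL159W-A (-2.49) and YMR272W-B (-2.29) had larger listed differences than YGP1 but were not called, and they were named after their values were seen. YDL159W-A had 6.91 and 0 FPKM in the deletion libraries and 17.2 and 12.8 FPKM in wild type, and YMR272W-B had 0 and 17.2 FPKM in the deletion libraries and 13.3 and 29.7 FPKM in wild type. ADE17, an enzyme gene of purine synthesis, had 109 and 126 FPKM in the deletion libraries and 225 and 247 FPKM in wild type. SAG1, the alpha-agglutinin gene, had 158 and 171 FPKM in the deletion libraries and 304 and 335 FPKM in wild type. GTT1 encodes a glutathione transferase, HMX1 a heme oxygenase and AGA1 the anchor of the a-agglutinin. Of the 6 genes nearest to YGP1, CTT1, ADE17, SAG1 and AGA1 missed the threshold without deletion replicate 1 or 2, GTT1 without deletion replicate 1, and HMX1 without deletion replicate 2 or either wild-type library (limma adjusted p between 0.0512 and 0.0654).

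The 6 genes nearest to SPS100 by the same measure were YAT2, ROQ1, TSA2, UPS1, BAS1 and CMR3, at distances between 0.065 and 0.0888. SPS100 itself differed by 0.28 between wild-type replicates and 0.16 between deletion replicates in log2(FPKM + 1), beside 0.32 between strains. A short distance to it thus mostly reflects a small strain difference and a like replicate spread. None is a listed spore wall gene, but genes with large rises could not be near. None of these 6 passed (limma, adjusted p between 0.0765 and 0.231), although CMR3 passed with only names in R64 (0.0497).

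**Figure D4:**
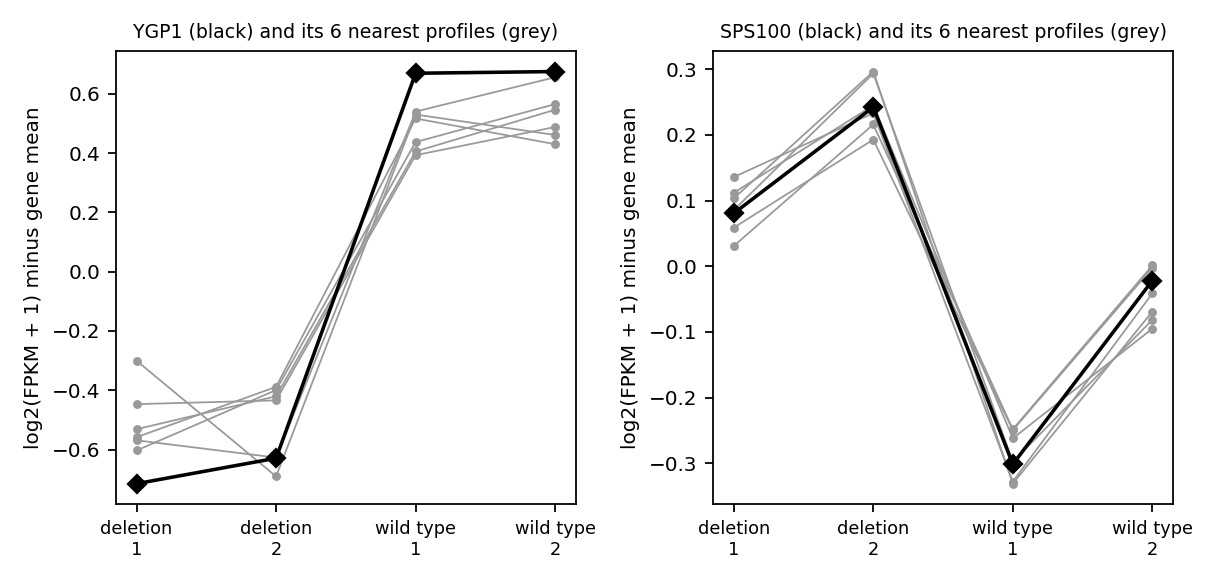
Log2(FPKM + 1) minus the gene's mean in the 4 libraries for YGP1 and SPS100 (black) and the 6 genes with the nearest profile to each (grey). YGP1 and its nearest genes separate the strains, and these 6 genes lie at distances of 0.196 to 0.491 from YGP1. The SPS100 profiles span a range of under 1 on this scale.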

How the data were processed

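Processed values of 4 RNA-seq libraries were used, 2 per strain. The deposited unit is FPKM. TopHat2 (2.0.10) and Cuffnorm (2.2.1) are named in the submitters' processing notes. For build, annotation, library scaling, strand and multiply matching reads, the sources used here say nothing. Of 6690 names, 6007 matched an R64 locus tag. Absolute depth is unknown: ratios of values under 1 FPKM fell within 0.01 (log2) of whole-read steps for 34.5% to 38.7% of low genes, too few to recover reads, so no count test was run.

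Genotype was fitted to log2(FPKM + 1) with limma (3.58.1, eBayes with a trend; R 4.3.3) for the 6370 genes that reached 1 FPKM in 2 or more libraries. Differences on this scale understate changes of low genes. Folds are ratios of mean FPKM. Named genes follow a rule: YGP1 and SPS100, the regulators, duplicate pairs, deleted and mating-type genes, 3 neighbours per side, from each list up to 4 with the largest log2 difference, taking genes past the threshold first, the 5 next falls and the 6 nearest profiles. DIT1, DIT2, SPG1, other listed genes given by symbol only and the reading frames so marked fall outside it. Members and lists were chosen with earlier results of these data known. Near copies were sought with blastn 2.17.0 at 95% identity over 50% of the length; codon alignment used Biopython 1.88. Alternatives were other pseudocounts, scalings, filters and eBayes options, blocks, and leaving out each library.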

Additional observations from a re-analysis of the deposited data

How the results depend on the processing

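YGP1 stayed lower in the deletion strain under every alternative run on it, between -1.39 (without deletion replicate 2) and -1.30 (without deletion replicate 1). A block cannot move its difference from -1.34, because that value is taken from strain means. YGP1 was also chosen by this difference, so these values are a description only. SPS100 turned to -0.0114 after quantile normalization, was 0.20 with a pseudocount of 5 and 0.37 with one of 0.1, and ranged from 0.19 to 0.47 without 1 library. The change in the SPS100 to YGP1 ratio was 1.36 after quantile normalization and 1.53 to 1.80 without 1 library.

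The 430 higher and 178 lower genes became 360 and 111 with the replicate block, and 355 and 294 after quantile normalization. With only names in R64 there were 512 and 297, and without 1 library 113 to 327 and 15 to 45. In the Haa1 list the gene that fell was lost (0) with the replicate block, without the filter, with eBayes without a trend (where 2 rose) and without any 1 library (0 or 1 rose). Without 1 library the stress genes that fell numbered 0 to 5, the post-diauxic genes that rose 1 to 3 and fell 0, the cell wall genes that rose 0 to 2 and fell 1 to 2, and the spore wall genes that rose 19 to 26. Post-diauxic genes that rose numbered 3 after quantile normalization, and those that fell 2 with the replicate block or with only names in R64. Cell wall genes that fell numbered 3 with the replicate block, and 5 rose with only names in R64. The replicate block changed no other list by over 1.5 times. The cause of these changes was not tested.

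The replicate numbers are not stated to pair libraries. Deviations of same-numbered libraries correlated at -0.105 over 6028 genes, so a crossed block was added after seeing the data and gave 400 higher and 120 lower genes, with 0 Haa1 and 3 cell wall genes lower. Leaving out a library leaves 1 in its strain, which is assumed to vary like the other strain. Over 70 named genes with a test, 981 of 1047 values under alternatives kept direction and side of the threshold or had no call to lose, 48 lost the call, 18 gained one and 0 turned a call round. Among those gained, BAR1 passed in 3 settings, and without wild-type replicate 1 MFA1 (adjusted p = 0.000258) and MFA2 (0.00201) passed, as did AGA2 (0.0433) without wild-type replicate 2. With n = 2 technical libraries per strain and unknown read totals, small differences of low genes such as SPS100 are not resolved.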
